A study of Rattus norvegicus with 48 samples.

Results

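Across 3 generations of rat sperm, 128 small loci were listed as differentially methylated between control and organochlorine lines in F1, in F2 and in F3. These loci are described here. To find them, all listed cytosines were pooled, cytosines at most 1000 bp apart on a chromosome were joined into loci, and a locus was kept when it held fewer than 5 distinct cytosines and at least 1 from each generation. The 128 loci were 4.71% of the 2716 loci formed from the lists, and held 208 of the 3998 distinct cytosines and 495 of the 4937 listed values. The members were chosen by the authors' listed differences and q-values of all 3 contrasts, so their recurrence is not a result, and their directions and sizes are described with no test.

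The lists come from reduced representation bisulfite sequencing, in which CpG-rich restriction fragments are sequenced after bisulfite has turned unmethylated cytosines into uracil, on sperm from the caudal epididymis of Sprague-Dawley rats. The labels assign 48 samples to 8 groups of 6, control and organochlorines in each of 4 numbered generations. Only the founder females (F0) were dosed, with corn oil in the control line and with an Arctic mixture of persistent organic pollutants at 500 µg per kg body weight in the other, from 5 weeks of age until they gave birth. The sampled males were not dosed directly and were killed at 90 days of age in the F1, F2 and F3 generations. The labels give an age of 90 days in all 4 numbered generations. The lists are named F1, F2 and F3, whereas the samples whose labels cite them carry the generation numbers 2, 3 and 4, so the lists' names are used. Each listed value is the authors' difference between 2 groups in percentage points of methylation, kept at a false discovery rate below 1% and a difference of at least 20 points. It carries no value of a single animal, no replicate spread and no coverage, so the depth behind it is unknown. Which group was subtracted from which is not stated with the lists, so hypermethylated and hypomethylated mean only the list in which a cytosine stands. Within each labelled generation, control and organochlorine samples shared the same 2 sequencing lanes, with 3 samples of each group per lane. The lanes of labelled generations 1 and 2 were not those of generations 3 and 4. Lane and part of the difference between generations therefore cannot be told apart.

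As background, most DNA methylation of the parental genomes is erased and rebuilt in the early embryo and again in primordial germ cells, and mature sperm carry the pattern set during male germ cell development. Imprinted genes keep their parental marks through the erasure in the embryo, and some repeat elements keep part of theirs through both. When a pregnant founder is dosed, the F1 fetus and the germ cells inside it, which give rise to F2, are exposed directly, and F3 is the earliest generation without direct exposure. Because the sample labels number the generations otherwise, whether the list named F3 is of that generation is not settled here. Coordinates follow the rat assembly Rnor_5.0 and are given as chromosome and position, or as chromosome:start-end. Genes, repeats and base sequence at the loci were not analysed here, so loci are named by position.

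Most of the loci were very small. A single cytosine made up 71 loci, 42 held 2 cytosines, 7 held 3 and 8 held 4, and 101 of the 128 spanned 2 bp or less. The longest covered 327 bp on chromosome 15. The cytosines lay on both strands alike, 103 on the plus and 105 on the minus strand. Recurrence was mostly at the cytosine itself. In 111 loci 1 identical cytosine was listed in all 3 generations, in 6 the generations were joined through the 2 strands of a CpG, and in 11 only through neighbouring cytosines. Of the 208 cytosines, 121 were listed in all 3 generations, 45 in 2 and 42 in 1.

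Loci with 1 direction throughout were the largest class. In 95 loci, or 74.2% (95% exact Clopper-Pearson interval 65.7% to 81.5%, over loci and for counting error only), every listed cytosine had the same sign in F1, F2 and F3. Among the 497 loci of fewer than 5 cytosines listed in exactly 2 generations, 73.0% had the same sign at every listed cytosine. That share needs agreement over 2 lists and the 74.2% needs it over 3, so the shares are not on equal terms. The 73.0% also pools unlike parts, from 55.3% of the 197 loci not listed in F2 to 86.8% of the 136 not listed in F3. In 21 loci, or 16.4% (10.5% to 24.0%), each generation had 1 direction but the generations differed, and in 12, or 9.38% (4.94% to 15.8%), a single generation held both directions. Hyper- and hypomethylated loci were balanced among the 95, with 49 hypermethylated, 51.6% (41.1% to 62.0%), and 46 hypomethylated. Taken as listed values, the loci had 84 hypermethylated values among 164 for F1, 81 among 159 for F2 and 82 among 172 for F3. These are 51.2%, 50.9% and 47.7%, beside 58.8%, 54.4% and 46.9% of all values listed in F1, F2 and F3.

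**Figure D1:**
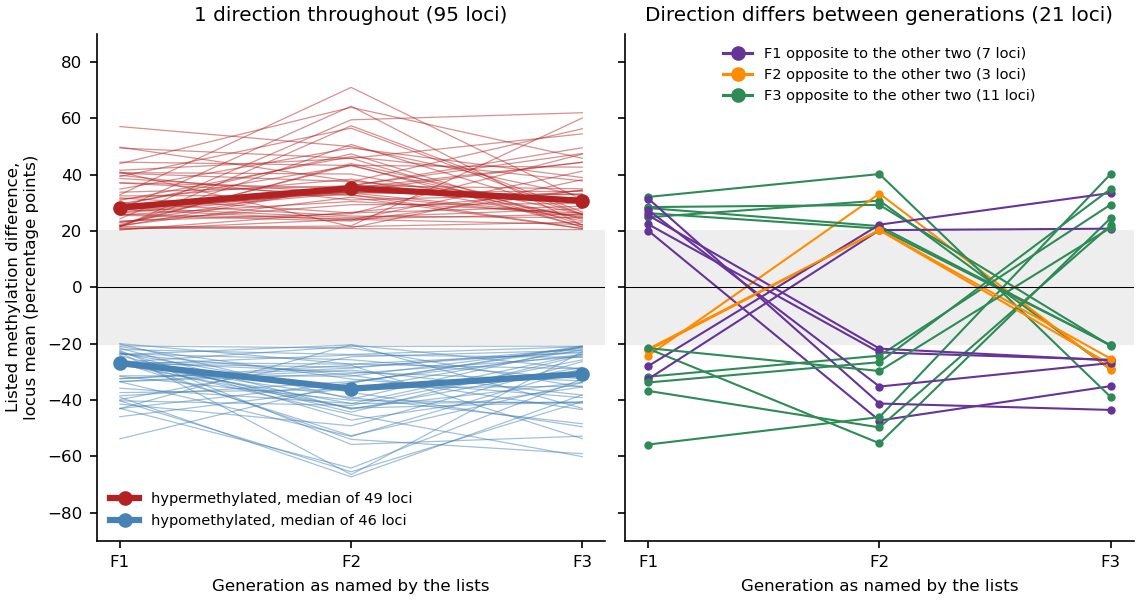
Listed methylation difference of each locus (mean of its listed cytosines, percentage points) in F1, F2 and F3. Thin lines are loci, thick lines are medians over the 49 hypermethylated and 46 hypomethylated loci with 1 direction (left), colours on the right give the generation that stood opposite in the 21 loci whose direction differed, and the grey band is the range below the authors' minimum. The left medians are farthest from 0 in F2, and most crossings on the right fall between F2 and F3.

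The hypermethylated loci with 1 direction reached above 30 points in every generation at their strongest. They are ordered by the generation in which each was weakest, values follow the order F1, F2, F3 where no generation is named, and each of these loci held the same cytosine in all 3 lists. First was chromosome 11, position 28401647, for which the authors' deposited table gave 43.9, 63.9 and 45.8 points. The F2 value was clearly the highest there, and F1 and F3 were close. Position 223676841 of chromosome 2 was nearly level, with 44.4, 43.3 and 42.6 points in the authors' deposited table. For position 18955531 of chromosome 8, the authors' deposited table gave 41.5, 45.8 and 54.5 points, highest in F3. These were the only 3 hypermethylated loci with 1 direction above 40 points in all generations.

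Chromosome 3, position 82835259, followed in the authors' deposited table with 40.5, 37.5 and 56.3 points, highest in F3. Chromosome 1, position 196120461, had 37.1, 35.2 and 44.4 points in the authors' deposited table, again highest in F3. Both strands of a CpG were listed at 19:27041004-27041005, with 31.2, 57.1 and 39.0 points on the plus strand in the authors' deposited table, and 38.5 in F1 and 41.8 in F2 on the minus strand. Here the strands differed more in F2 than in F1. At 8:19117409-19117410 the plus strand had 38.4, 41.8 and 62.4 points and the minus strand 29.1, 30.3 and 36.6 in the authors' deposited table, so the minus strand was lower in each generation. Position 51404218 of chromosome 8 varied little, with 38.6, 33.5 and 33.0 points in the authors' deposited table. At chromosome 7, position 124583149, values of 57.1, 49.9 and 32.3 points stood in the authors' deposited table, highest in F1. Chromosome 16, position 45902208, completed the 10 strongest, with 32.9, 71.0 and 31.1 points in the authors' deposited table. Its F2 value was the highest locus value of any generation among the 128.

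The 10 strongest hypomethylated loci with 1 direction were largest in F2 at 6 loci, against 3 of the 10 strongest hypermethylated loci. Over all loci with 1 direction, hyper- and hypomethylated together, F2 was largest at 43.2%. Both lists of 10 were picked by size, so 6 against 3 does not describe the directions as a whole. A CpG at 12:39426528-39426529 was listed on both strands in every generation, with -35.3, -61.9 and -37.1 points on the plus strand and -45.3, -69.1 and -44.1 on the minus strand in the authors' deposited table. Both strands were deepest in F2. The locus at 11:29043737-29043818 held 4 cytosines with means of -39.0, -67.3 and -38.2 points in F1, F2 and F3, and its last position, 29043818, went from -44.9 to -83.7 and back to -41.5 in the authors' deposited table. The CpG at 12:38805252-38805253 had -42.8, -62.6 and -33.5 points on the plus strand and -43.1, -65.8 and -31.6 on the minus strand in the authors' deposited table. These 3 loci shared the same profile, about as deep in F1 as in F3 or deeper, and deepest in F2.

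Others were flatter or deepest elsewhere. Chromosome 1, position 197462400, was at -35.8, -41.2 and -40.8 points in the authors' deposited table. At 7:92210278-92210340 the authors' deposited table listed -45.9 in F1 and -35.7 in F2 at the lower position, and -35.1 points in F3 at the other cytosine only. The CpG at 6:133490422-133490423 had -31.6, -40.1 and -40.4 points on the plus strand in the authors' deposited table, with -42.0 on the minus strand in F3. Position 12255373 of chromosome 14 had -33.4, -29.4 and -39.0 points in the authors' deposited table. These 4 loci varied less between generations than the 3 before them. Chromosome 8, position 4703816, was at -33.5, -52.9 and -28.8 points in the authors' deposited table, deepest in F2. Chromosome 5, position 150167869, was deepest in F3, with -32.5, -27.7 and -53.8 points in the authors' deposited table. Last, positions 11267470 and 11267484 of chromosome 3 were listed on the plus strand in every generation, with -27.1, -43.2 and -33.2 points at the former and -27.6, -42.6 and -34.3 at the latter in the authors' deposited table. These neighbours, 14 bp apart, gave almost the same value in each generation.

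Over the 95 loci with 1 direction, sizes were set side by side as absolute differences. The median was 27.6 points for F1, 35.7 for F2 and 30.7 for F3. The hypermethylated loci had medians of 28.3, 35.2 and 30.7 points and the hypomethylated loci 26.9, 36.0 and 30.7, so both directions followed the same course. The absolute difference was largest in F2 at 41 loci, in F3 at 30 and in F1 at 24. F2 lay between a smaller F1 and a larger F3 at 21 loci, between a larger F1 and a smaller F3 at 18, and below both at 15. At 40 points or more there were 17 loci in F1, 37 in F2 and 24 in F3. Only 19 of the 95 were at 30 points or more in every generation, 9 at 35 or more and 4 at 40 or more. The steadiest locus, at 10:89307642-89307742, had means of 20.9, 20.8 and 20.5 points, just inside the authors' minimum. The widest gap between generations among these 95 loci was at the CpG at 17:15275237-15275238, with locus means of -23.1, -66.5 and -22.9 points. Its minus strand was listed in every generation and its plus strand in F2 alone, at -70.0 points in the authors' deposited table.

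**Figure D2:**
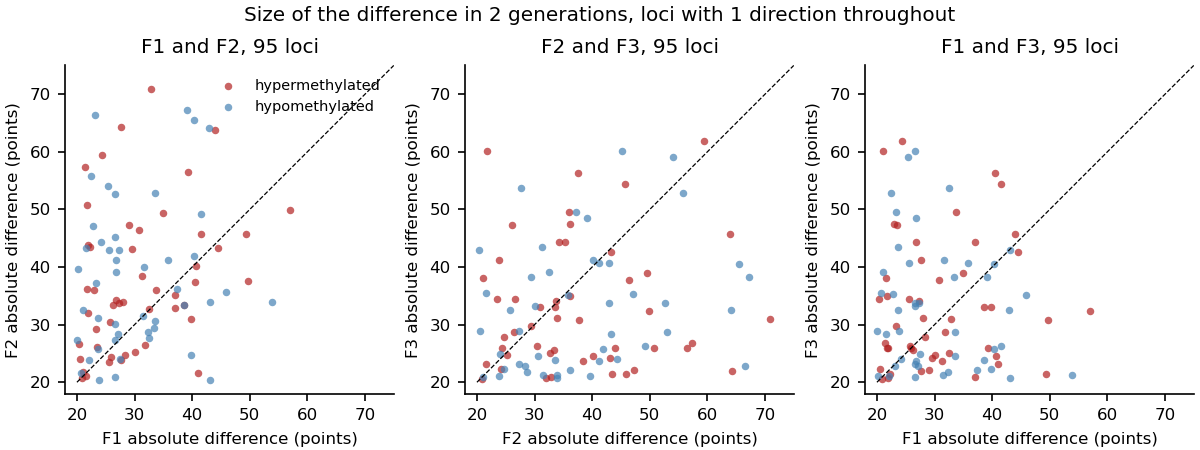
Absolute difference (percentage points) of the 95 loci with 1 direction in pairs of generations, with hypermethylated loci in red, hypomethylated loci in blue and equal values on the dashed line. Points scatter widely around the line in all 3 panels, and many F2 values reach 40 to 71 points where the other generation is near 20 to 30.

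A locus that was large in one generation was not regularly large in another. Across the 95 loci, absolute differences correlated with Pearson's r = 0.21 and Spearman's rho = 0.22 between F1 and F2, 0.15 and 0.16 between F2 and F3, and -0.041 and -0.0080 between F1 and F3. Each point is 1 locus with its own read depth in both contrasts, all values begin at 20 points, and neighbouring loci are not independent, so these are descriptions only. The median gap between the largest and the smallest generation of a locus was 16.2 points, with a range from 0.42 to 43.6, and 9 loci stayed within 5 points.

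The 2 strands of a CpG gave a measure of scatter within a generation, since they are read separately in the same animals. Cytosines were taken as such a pair when a plus-strand cytosine was followed at the next base by a minus-strand one. At the 128 loci both strands were listed in the same generation 62 times, at 40 CpGs, and they had the same direction in all 62. The strands differed by a median of 4.78 points, with a 90th percentile of 15.2 and a maximum of 25.8 at the chromosome 8 CpG above, in F3. The scatter of pairs corresponds to an SD of 6.20 points for a single strand. It holds the sampling of reads and any true difference between the strands, and not the spread between animals. Both strands had to pass 20 points to be seen. The same cytosine, where it kept its direction, differed between generations by a median of 7.63 points over 127 cytosines of F1 and F2, 8.91 over 120 of F2 and F3 and 7.64 over 124 of F1 and F3. Of the 95 loci with 1 direction, 54 varied over the 3 generations by more than 15.2 points, the 90th percentile between strands, but a range over 3 values is wider by construction than a gap between 2.

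**Figure D3:**
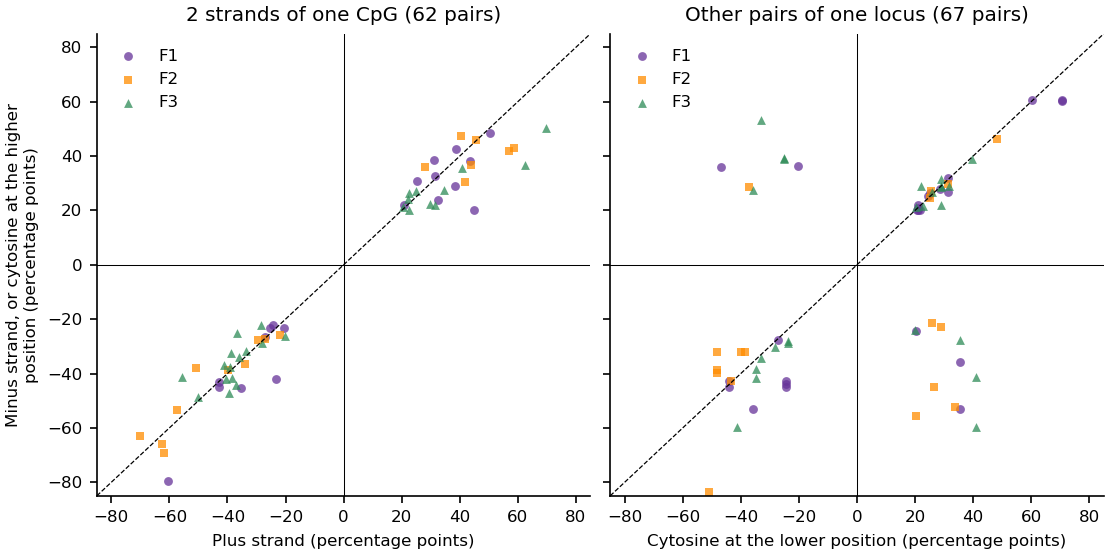
Listed differences (percentage points) of 2 cytosines of one locus in one generation, for the 2 strands of a CpG (left, 62 pairs) and for all other pairs (right, 67 pairs), with F1 as circles, F2 as squares, F3 as triangles and equal values on the dashed line. All points on the left fall in the quadrants of equal sign, whereas 19 on the right fall in the quadrants of opposite sign.

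The direction differed between generations at 21 loci, with large differences on both sides in a few. In 11 of them F3 stood opposite to F1 and F2, in 7 F1 stood opposite to F2 and F3, and in 3 F2 stood opposite to F1 and F3. At chromosome 4, position 13461000, the same cytosine had -55.8, -46.1 and 40.2 points in the authors' deposited table. It was the only such locus at 35 points or more in every generation. The CpG at 6:105942363-105942364 was at 31.5 in F1 and -41.1 points in F3 on the plus strand, and at 32.7, 40.2 and -36.7 in F1, F2 and F3 on the minus strand, in the authors' deposited table. Both strands had opposite signs in F1 and F3, and the plus strand was not listed in F2. Only 6550 bp away, chromosome 6, position 105948914, turned in the other sense, with -31.7, -24.3 and 29.4 points in the authors' deposited table.

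A turn between F1 and F2 was seen at chromosome 10, position 12722554, with 31.5, -41.3 and -43.5 points in the authors' deposited table. Chromosome 3, position 70156413, had the same order of signs, with 22.4, -23.1 and -25.7 points in the authors' deposited table, all near the minimum. The opposite sense held at chromosome 11, position 72230123, where the authors' deposited table gave -27.9, 22.2 and 33.5 points. A different F2 was listed at chromosome 1, position 100710295, with -24.3, 33.3 and -29.2 points in the authors' deposited table. At 1:13560973-13561003 each generation rested on other cytosines in part, with means of 24.9, 30.8 and -29.1 points. Its position 13560974 alone was listed in F2 and F3, at 30.8 and -28.2 points in the authors' deposited table.

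In other loci the generations were listed at partly or wholly different cytosines. At 9:15417845-15417866 the cytosine at the lowest position was at 27.4 in F1 and -23.9 points in F3, and the CpG 20 bp further was at -33.9 and -36.6 in F2 and at -28.1 and -28.6 in F3 on its strands, in the authors' deposited table. At 15:79132630-79132956 no cytosine was listed more than 1 time, and the authors' deposited table gave -33.8, -26.6 and 34.9 points at 3 positions. The 1 direction class held 90 of the 111 loci with an identical cytosine in all 3 generations, or 81.1%, but 2 of the 6 joined through the strands of a CpG and 3 of the 11 joined through neighbours. By number of cytosines, it held 83.1% of the loci with 1 cytosine, 71.4% with 2, 14.3% with 3 and 62.5% with 4, and a locus of 1 cytosine cannot hold both directions in a generation. The sizes at the 21 loci had medians of 27.4, 29.3 and 26.9 points in F1, F2 and F3.

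At 12 loci neighbouring cytosines were listed with opposite directions in the same generation. They are all named here, chosen after their values were seen. The opposite cytosines lay 9 to 242 bp apart, with a median of 49 bp over 19 pairs, of which 16 were on the same strand. By comparison, the 48 other pairs with the same direction that were not strands of a CpG lay a median of 69 bp apart. Of these 48, 33 were on the same strand. Both counts take 2 cytosines again in each generation that lists them, and the difference was not tested. Opposite neighbours were listed in more than 1 generation at 4 of the 12 loci and in a single generation at the other 8. Of the 22 cytosines at these loci listed in at least 2 generations, 20 kept their direction. Among the cytosines of all loci described here that were listed in 3 generations, 106 of 121 did. The latter count needs agreement over 3 lists, so the counts are not on equal terms. A kept direction was therefore common among all the loci and is not shown to be particular to those with opposite neighbours.

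The clearest case was 14:6922171-6922224, with 3 cytosines on the plus strand. Its first cytosine was at 35.3 in F1 and 41.1 points in F3, the next, 30 bp on, at -35.7 and -41.2, and the last at -53.0, -29.0 and -59.7, in the authors' deposited table. F1 and F3 thus held the same pattern of signs. At 14:78138497-78138546 the authors' deposited table gave -46.9, -37.3 and -40.2 points at the lower position and 36.0 in F1 and 28.6 in F2 at the higher one. The pattern of F1 returned in F2 there. At 17:11662272-11662290 the authors' deposited table gave 20.5 points (F2) and 20.1 points (F3) at the lowest position, and -60.4, -55.8 and -24.1 only 17 bp further. The other strand of the latter CpG was at -79.7 points in F1 in the authors' deposited table.

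Among the loci with opposite neighbours, only 17:17819008-17819017 held cytosines that changed direction between generations. Its first cytosine was at 20.4, 51.5 and -33.0 points and its neighbour 9 bp on at -24.2 (F1) and 53.1 (F3), in the authors' deposited table. Both had the opposite sign in F3 to that in F1, and they stayed opposite to each other. Nearby, 17:17971139-17971148 had 33.9 points in F2 at the lower position and -21.0, -52.3 and -55.4 at the higher one in the authors' deposited table. At 17:91272438-91272690 the authors' deposited table had 70.6 and 59.5 points in F1 and F2 at the first cytosine, -25.1 in F3 at a cytosine 10 bp on, and 60.2 in F1 and 39.5 in F3 at the third.

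The other 6 were weaker or rested on fewer listings. At 1:86310758-86310787 the first cytosine was level at 35.2, 35.2 and 35.6 points, and the second was listed in F3 alone at -27.5, in the authors' deposited table. At 1:284433373-284433391 the authors' deposited table had 29.0 points in F2 at the first cytosine and -21.6, -23.0 and -25.0 at the last. At 2:175599636-175599710 the lower position was at 26.4 (F2) and 20.5 points (F3) and the higher at -36.0 (F1) and -45.0 (F2) in the authors' deposited table. The locus at 3:179114536-179114720 had -21.3 (F1) and -35.9 points (F3) at one cytosine and 23.2 (F2) and 27.7 (F3) at the other in the authors' deposited table. At 5:2213736-2213819 the authors' deposited table had 26.0 points (F2) at the first cytosine, -20.4 (F1) and -28.2 (F3) at the next and -21.4 (F2) at the last. At 6:144652420-144652484 the authors' deposited table had -20.2 in F1 and -24.5 points in F3 at the lower and 36.5 in F1 and 34.2 in F2 at the higher position.

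**Figure D4:**
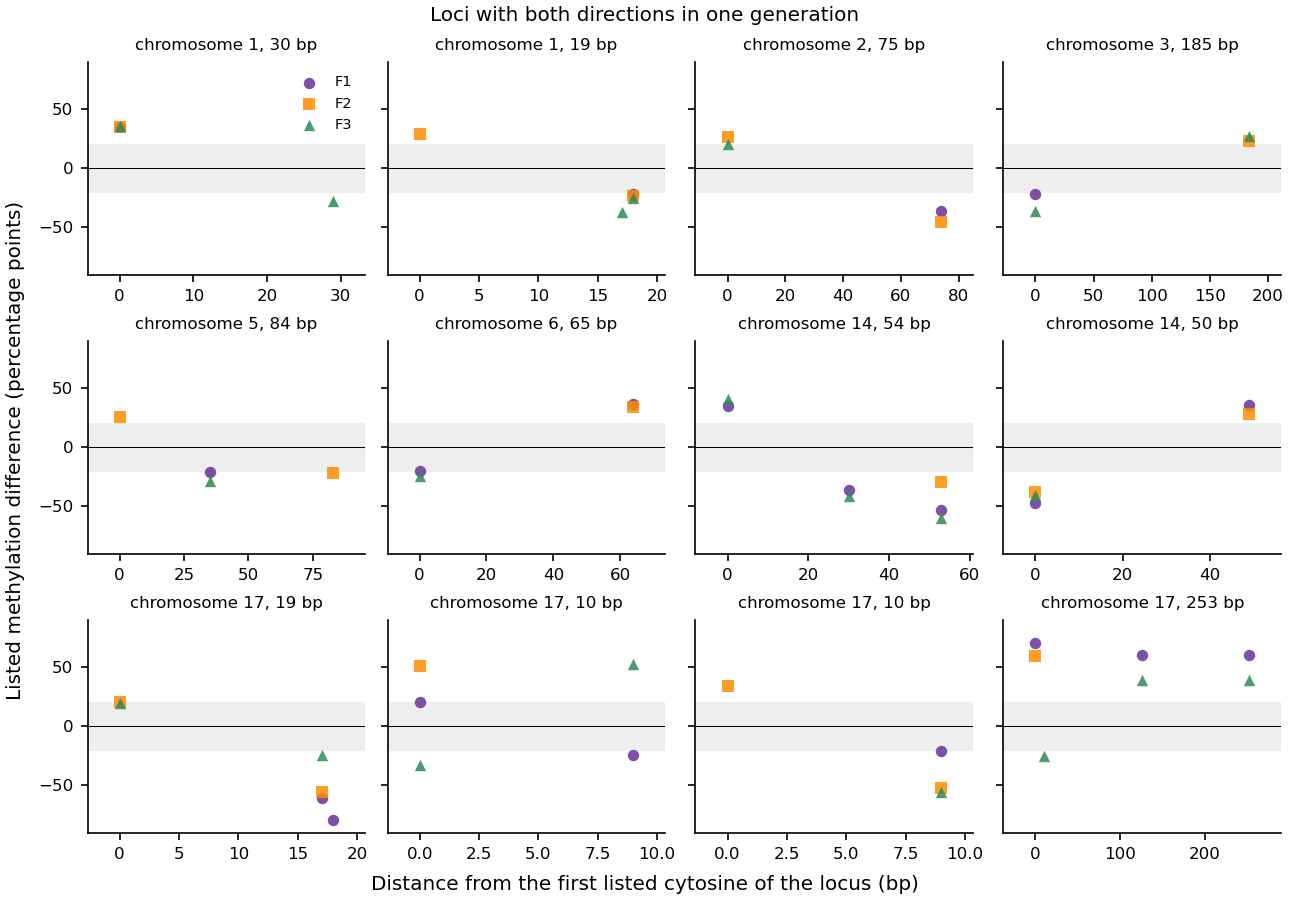
Listed difference (percentage points) of every cytosine of the 12 loci with both directions in one generation, against its distance in bp from the first listed cytosine, with F1 as circles, F2 as squares, F3 as triangles and the range below the authors' minimum in grey. Symbols of different generations at one distance nearly always share their side of 0, except in the left of the 2 loci of 10 bp on chromosome 17, where F1 and F3 change sides.

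Such opposite neighbours can only be seen where a generation lists at least 2 cytosines. Of the 128 loci, 54 did so in some generation and 12 of these, or 22.2%, held both directions. Among loci listed in exactly 2 generations it was 19 of 183, or 10.4%, and among those listed in 1 it was 38 of 316. A locus listed in more generations has more generations in which both directions can appear, so these shares are not on equal terms. The difference was not tested.

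Directions were then set beside loci listed in only 2 of the generations. Read on F1 and F2 alone, 84.4% of the 128 loci had 1 direction (95% exact interval 76.9% to 90.2%). Of the 136 loci listed in F1 and F2 only, 86.8% did (79.9% to 92.0%). For F2 and F3 the shares were 79.7% (71.7% to 86.3%) of the 128 and 82.9% (76.3% to 88.3%) of 164. For F1 and F3 they were 78.9% (70.8% to 85.6%) of the 128 and 55.3% (48.1% to 62.4%) of the 197 loci that were listed in F1 and F3 and not in F2. The intervals cover the counting of loci only and take loci as independent. Neighbouring loci are not, and all are read in the same animals, so the intervals may be too narrow. No test was made since the contrasts chose the loci.

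Sizes were set beside those of the other loci in the same way, with no test. The median absolute difference per locus was 34.1 points in F2 at the 128 loci, beside 28.8 at loci listed in F1 and F2 only, 27.0 at those in F2 and F3 only, and 24.5 at those in F2 alone. In F1 it was 27.6 points, beside 27.4 and 27.7 at loci listed in 2 generations and 24.0 in F1 alone. In F3 it was 29.3 points, beside 28.9 and 28.0 at loci listed in 2 generations and 25.5 in F3 alone. Of the listed values at the 128 loci, 76.7% in F2 were above the median of all F2 values, against 62.2% in F1 and 61.0% in F3. A q-value listed at 0, the smallest value the lists can show, was given for 70.1%, 71.7% and 55.2% of these values in F1, F2 and F3, beside 45.0%, 48.8% and 36.8% of all values. Depth differs between contrasts by an unknown amount, and its part in these sizes was not tested.

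**Figure D5:**
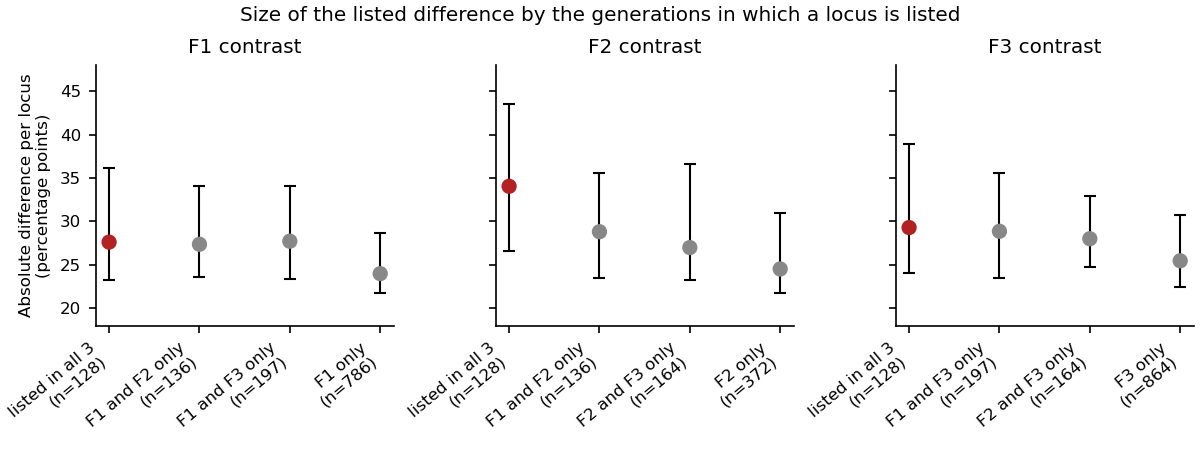
Median absolute difference per locus (points, percentage points of methylation) with bars from the lower to the upper quartile, for loci listed in all 3 generations (red) and for loci of fewer than 5 cytosines listed in 2 or 1 (grey), in the F1, F2 and F3 contrasts. The red point is highest in the F2 panel, at 34.1, and level with the loci listed in 2 generations in the F1 and F3 panels.

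The loci lay on 19 of the 20 chromosomes in the lists. Chromosome 1 held 16, chromosome 8 held 13 and chromosome 20 held 11, which was 5.93%, 9.92% and 8.66% of the listed loci of these chromosomes. None lay on chromosome 13, where the 95 listed loci include 1 of at least 5 cytosines that is listed in all generations. Chromosome 8 carried 9 hypermethylated and 3 hypomethylated loci with 1 direction and chromosome 9 carried 1 and 5, beside 49 and 46 in all. Of the 9 loci on chromosome 6, 5 changed direction between generations, against 21 of 128 in all. Of the 9 on chromosome 17, 4 held both directions in a generation, against 12 of 128 in all. The chromosomes named were picked with their values in view, and how many cytosines could be called on each is unknown.

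Several loci lay near each other. Within 100 kb there were 7 groups with 15 loci. The group on chromosome 17 from 17819008 to 17971148 had 3 loci, 2 of them with both directions, and between these lay position 17900260, at -22.5, -55.8 and -52.8 points in the authors' deposited table. On chromosome 12, the CpG at 38805252 lay 22717 bp from position 38782535, which was at -40.3, -41.9 and -25.8 points in the authors' deposited table. Both loci were hypomethylated throughout and least so in F3. On chromosome 16, position 24087202 was at -41.5, -49.2 and -26.4 points and position 24100882 at -26.7, -52.7 and -33.8 in the authors' deposited table, both deepest in F2. On chromosome 17, the CpG at 11749109 lay 86819 bp from the locus of opposite neighbours at 11662272 and was hypermethylated, at 50.5, 45.8 and 22.6 points on its plus strand in the authors' deposited table. Both loci had their largest size in F1 and their smallest in F3. The locus at 1:284433373-284433391 lay 41314 bp from position 284474705, at 25.6, 23.5 and 34.5 points in the authors' deposited table.

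Over 1 Mb, 50 of the 128 loci fell into 20 groups, the largest with 5 loci on chromosome 12. Of 30 adjacent pairs within 1 Mb, 21 had their largest absolute difference in the same generation, or 70.0%, beside 33.8% of all pairs among the 128. In 13 of the 20 groups all members had it in the same generation. On chromosome 20, 3 loci from 12896355 to 13423409 were all smallest in F1 and largest in F3, with locus means of -26.6, -45.2 and -60.1 points, of 23.0, 36.1 and 47.5 and of 24.3, 59.4 and 62.0, 1 of them hypomethylated and 2 hypermethylated. On chromosome 12, all 5 loci between 38556483 and 39426529 were largest in F2, 4 hypomethylated and 1 hypermethylated. Adjacent pairs in groups of 3 or more share loci, so the pairs are not independent of each other. All loci, near or far, are read in the same animals, and these counts are a description with no test.

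The rule had 2 limits. Among the 8 loci with 4 cytosines, just inside the limit, 5 had 1 direction throughout, such as 18:45229049-45229187, with means of 28.3, 24.7 and 27.9 points in F1, F2 and F3. Another of them, 6:113556957-113557065, had -32.5 in F1 and 20.3 and 20.8 points in F2 and F3 as means, at cytosines that F1 did not share with the others. Just outside was 8:119692444-119692500 with 5 cytosines, at 27.1 and 24.8 points in F1 and F2, where F3 held both directions. There were 7 such dense loci with 5 or more cytosines listed in all 3 generations, 3 of them with 1 direction. The joining distance of 1000 bp mattered little, because the widest step inside any of the 128 loci was 253 bp, and the nearest listed cytosine outside one was 1220 bp away, on chromosome 17. At the authors' minimum, 15 values in F1, 9 in F2 and 13 in F3 at the 128 loci lay between 20 and 21 points.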

How the data were processed

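The data are 6 deposited lists of cytosines, hyper- and hypomethylated in each of 3 contrasts, made by the authors from bisulfite sequencing of sperm. Which of the 48 samples entered which contrast is not stated in the labels. Each row gives a position on Rnor_5.0, a strand, a difference between control and treatment in percentage points, and the p-value and q-value the authors calculated. Named without a role in the submitters' processing notes are methylKit 0.9.4, Bismark 0.14.5, bedtools 2.17, SAMtools 1.2, Trim Galore 0.4.0 and CASAVA. The coverage minimum, the model and the treatment of strands, not given in the sources used here, could change which cytosines were listed. Since the lists hold no sample values, p-values could not be recomputed, and depth per sample is unknown.

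Loci were formed, classed and counted with pandas 2.3.3, numpy 2.4.6, SciPy 1.17.1 and matplotlib 3.10.9 under Python 3.11.15, and the rule was tested on simulated lists. The size of a locus in a generation is the mean of its absolute differences, and its signed value the mean of its differences. The members, the classes and the measures were chosen with earlier results of these data known. Loci were named by rule: the 10 hyper- and 10 hypomethylated loci with 1 direction whose weakest generation was largest, the 12 strongest whose mean direction differed plus 1 so that each opposite generation had 2, 6 groups within 100 kb, and loci at the limits. Loci with both directions in a generation were added after their values were seen. The planned sequence and gene context were not run, since no genome of Rnor_5.0 was used here.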

Additional observations from a re-analysis of the deposited data

How the results depend on the processing

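Counts and medians were recomputed under 7 alternatives: joining at 500 or 2000 bp, no upper limit of cytosines, a minimum difference of 25 points, q of at most 1e-5, the strands of a CpG joined, and 1 identical cytosine in all 3 generations. With a minimum of 25 points, 52 loci were left in place of 128, 42 with 1 direction in place of 95 and 6 whose direction differed in place of 21. The median sizes were then 33.8, 39.6 and 34.7 points in F1, F2 and F3, as fewer and larger values are kept, and 4 loci held both directions in place of 12. With an identical cytosine in all 3 generations, 7 loci held both directions. All other values stayed within 1.5 times the main count or within the 95% interval of the main share or median. The share with 1 direction ran from 72.6% to 81.1%. The alternatives re-use the same lists and largely the same loci, and joining at 500 bp changed no value. Staying within these bounds therefore says little about other animals. At q of at most 1e-5 the loci whose direction differed numbered 14 of 110, and 14 of 111 with an identical cytosine. These counts, and the 8 loci with both directions at q of at most 1e-5, lay at the limit of 1.5 times. No replicate could be left out, because the lists hold group contrasts only. No paired analysis was possible because the columns carry no samples.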
